A study of Dunaliella salina with 18 samples.

Results

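The net change of the H2L arm over one day was followed by comparing its 3 libraries at 24h with its 3 libraries at 0h, across all 43236 assembled transcripts of the deposited table. These are 6 of the 18 libraries of the series, which sampled strain CCAP 19/3 of Dunaliella salina, a green alga that tolerates high salt, in 2 arms at 0h, 4h and 24h around a reciprocal change of salinity. Total RNA of cultured cells was sequenced, and each transcript has 1 scaled abundance value per library. The arm is called H2L after the sample titles. The condition field of the same samples describes a shift from low to high salt, the opposite of what the title could be read to say, so no direction of the salinity change is assigned. All 6 libraries come from the same strain, and the labels state neither the salt concentrations nor how cultures were divided. No gene names come with the assembly's identifiers, and the reference gene table, made from strain CCAP 19/18, does not hold them. Transcripts are therefore given by identifier, with no function.

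Dunaliella salina has no rigid cell wall and changes volume when the salt outside changes. The cell then restores its volume by making or removing glycerol, its main compatible solute, which is formed from photosynthetic carbon and from starch, while ion transporters keep sodium low inside. A sample at 24h lies after the first hours of volume recovery, so it shows a later state of the culture than the 4h sample. Which of the transcripts below belong to these processes is not known from the files.

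The 6 libraries summed to between 791289 and 826141 units. Transcripts listed at 0 numbered 4813, 4815 and 6045 in libraries 1, 2 and 3 at 0h, and 4860, 4867 and 6463 at 24h. By this measure libraries 1 and 2 were closer to each other than to the third at both times. The number of reads behind a value is unknown, because the values are scaled for depth. Libraries 1 and 2 at each time carry one set of title tags and the third library another, and within each set the tag at 24h differs from that at 0h. Time and tag cannot be told apart, and what the tags mean is not stated.

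At 24h the larger group of changed transcripts lay below its starting level. Of 34166 transcripts tested, 2623 (7.68%) were called, that is, had a limma adjusted p under 0.05. At 24h 873 of them (2.56%) were higher and 1750 (5.12%) were lower. The median log2 change was 0.82 for the higher and -0.90 for the lower transcripts, against -0.02 over all tested. Of the calls 1007 (2.95% of all tested) changed at least 2-fold, 304 upward (0.89%) and 703 downward (2.06%), and 27 and 57 changed at least 4-fold. Only 4 transcripts called higher and 14 called lower reached 8-fold, on the log2(value + 1) scale. The groups' libraries did not overlap in 4490 tested transcripts (13.1%) with 24h above 0h and in 5531 (16.2%) with 24h below. The majority of falls depended on the scaling, since the share of calls that were higher, 33.3%, was 46.9% with quantile-normalized values and 50.1% with values scaled to their upper quartile. Leaving out H2L 0h library 1 gave 915 calls and leaving out library 2 gave 656, while leaving out library 3 raised the number to 3335. Leaving out the 24h libraries in turn gave 1255, 1294 and 1409. Of the 2623, 546 held in the same direction in every one of the 6 fits that left out 1 of these libraries, 136 of them higher and 410 lower. When libraries 1 and 2 were averaged into 1 sample per group, since they share a tag set, 24 were called (0.0702%), 2 higher (0.00585%) and 22 lower (0.0644%).

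**Figure D1:**
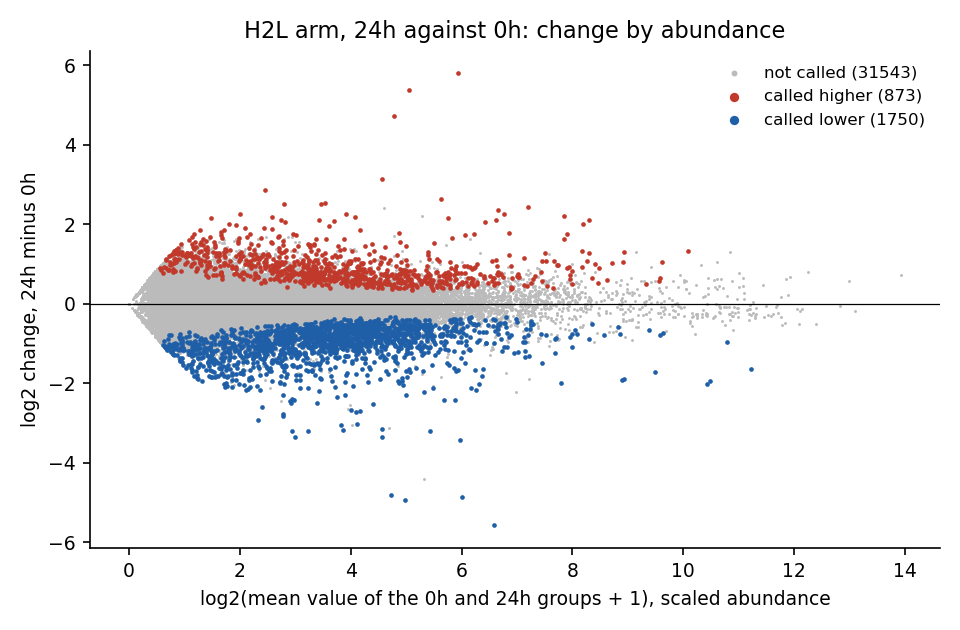
Log2 change from 0h to 24h in the H2L arm (vertical axis) against the log2 of the mean value of the 2 groups plus 1 (horizontal axis), 1 point per tested transcript. The 873 transcripts called higher are red, the 1750 called lower are blue, and a few points on either side lie far from the band of the others.

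Only 2 rises were also called with libraries 1 and 2 averaged, and both started from low values. The 2 largest falls also called in that way were near-complete losses. The transcript c46276_g5_i2 had abundance values of 1.81, 1.81 and 1.41 at 0h and of 7.6, 12.9 and 10.5 at 24h. Every 24h library stood above every 0h library, but such separation was a condition for naming these 4 transcripts. The log2 change of c46276_g5_i2 was 2.06 (SE 0.22, adjusted p = 9.64e-05, limma), or 1.19 with a pseudocount of 5. Its 4h libraries, at 3.46, 3.23 and 6.18, lay between the times.

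The second rise, c47881_g5_i1, had 0h values of 4.14, 2.8 and 5.09 and 24h values of 15.6, 16.7 and 22.6. By the same condition no 24h library reached down to the 0h range, and the log2 change was 1.96 (SE 0.20, adjusted p = 6.25e-05, limma). It stood at 8.03 ± 1.12 (SD, n = 3) at 4h, so both rises were part of the way up by then.

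The largest fall of the 4 was c43486_g1_i1, whose 0h libraries gave 64.5, 72.6 and 42.4 and whose 24h libraries gave 0.55, 1.14 and 1.2. The 3 libraries at 24h were all near 1 unit, and the log2 change was -4.94 (SE 0.30, adjusted p = 1.49e-07, limma). At 4h the values were 16.7, 20.2 and 36.4, below all 0h libraries and far above those at 24h.

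The transcript c9269_g1_i1 fell from 0h values of 132, 163 and 76.7 to 24h values of 4.99, 3.48 and 1.64 (log2 change -4.85, SE 0.34, adjusted p = 1.14e-06, limma). It was not called at 4h (log2 change -0.58, adjusted p = 0.306), where its libraries at 117.7, 76.9 and 54.1 overlapped those at 0h. In the L2H arm both falling transcripts were at or near 0 throughout. The highest L2H library of c43486_g1_i1 gave 1.72 and the highest of c9269_g1_i1 gave 0.98.

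**Figure D2:**
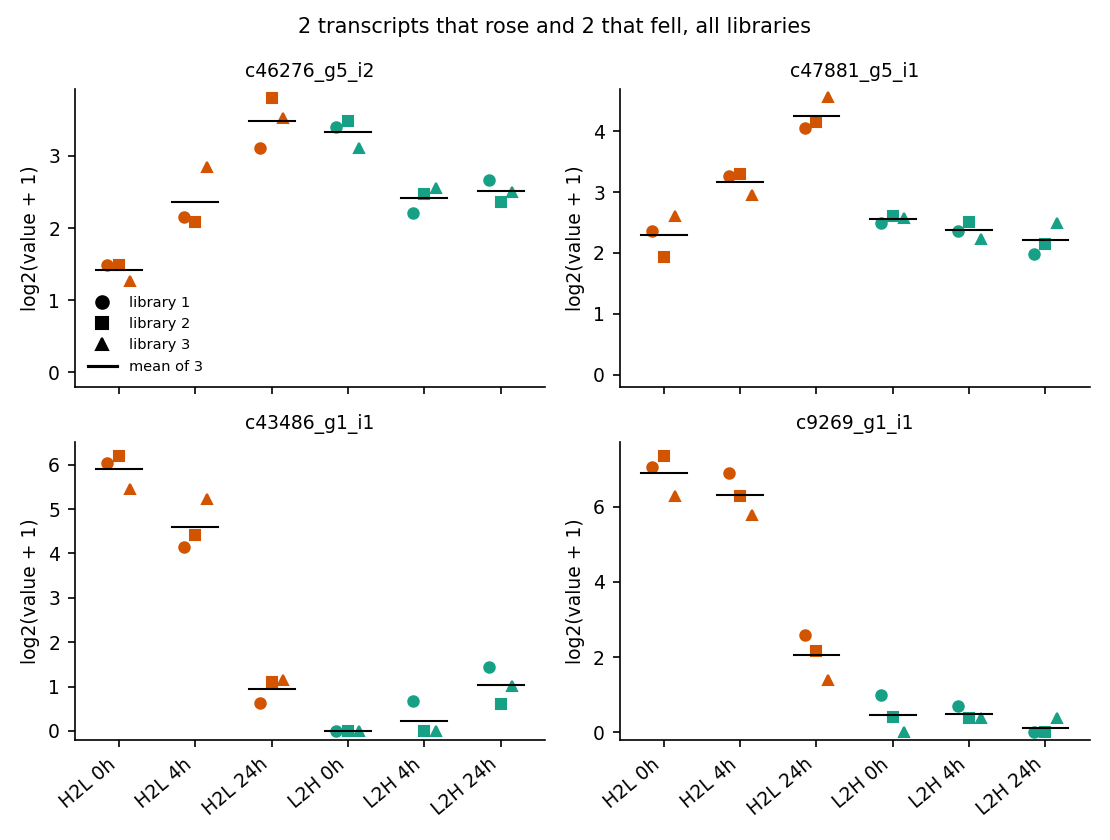
Log2(value + 1) of c46276_g5_i2, c47881_g5_i1, c43486_g1_i1 and c9269_g1_i1 in all 18 libraries, by group, with libraries 1, 2 and 3 as circles, squares and triangles and the mean of 3 as a line. In the H2L arm (orange) the 24h libraries of each transcript are clear of the 0h libraries, as the rule for naming them required. The 2 falling transcripts sit near 0 in the L2H arm (green).

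The 22 falls called with libraries 1 and 2 averaged had 0h means between 6.34 and 124 and 24h means between 0.17 and 27.9. For 19 of the 22 the 4h mean lay between those of 0h and 24h. In 15 of them all 3 L2H group means were under 5, and in 10 they were under 1. The first part c43486 supplies 5 of the 22 and of the 15, and 3 of the 10, and its members may share reads. Among all 1468 lower calls with an H2L 0h mean of at least 5, the L2H means were all under 5 in 150 (10.2%), and among all 16538 tested transcripts with such a mean in 622 (3.76%). These lists were drawn after their values were seen, so the shares are a description.

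Complete switches within the arm were rare under the limits used. Under 1 in all 0h libraries and at least 10 in all 24h libraries described 1 transcript, c48260_g3_i1, with 0.79, 0.11 and 0.96 at 0h and 63.9, 64.7 and 63.7 at 24h. The 3 libraries at 24h lay within 1 unit of each other, and its call was lost with libraries 1 and 2 averaged (adjusted p = 0.0866, limma). The count rests on the limits. Members of c50329 outside them went from 0h means of 0.963 and 1.29 to 24h means of 52.3 and 119. Their log2 changes were 4.72 and 5.79, and their calls were lost in the same way. The reverse pattern also described 1 transcript, c55012_g1_i1, with 14.5, 12.1 and 11.8 at 0h and 0.22, 0.44 and 0.91 at 24h. Its log2 change was -3.20 (SE 0.34, adjusted p = 9.53e-05, limma), or -1.69 with a pseudocount of 5. It was still at 10.4, 7.62 and 22.8 at 4h. Both were chosen for this pattern after their values were seen.

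Transcripts present at the start of the H2L arm and near 0 in the other arm all fell. There were 6 with at least 10 units in all H2L 0h libraries and under 1 unit in all 9 L2H libraries, and 6 of 6 were called lower at 24h. The 6 have 6 different first parts in their identifiers, and 1 of them belongs to the c43486 group described below. Among the 9367 tested transcripts with at least 10 units in all H2L 0h libraries, 1013 (10.8%) were called lower. The means of the 6 ran from 11 to 124 at 0h and from 0.523 to 3.70 at 24h, and c9269_g1_i1 and c55012_g1_i1 are among them. No transcript with at least 10 units in all H2L 24h libraries was under 1 in all 9 L2H libraries. The 0h values that chose these 6 also enter their change, so the count is not independent of the choice.

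Changes also occurred among abundant transcripts. By value, the largest falls among the 546 were those of c66899_g1_i1, c13735_g1_i1 and c30263_g2_i1. The transcript c66899_g1_i1 gave 4233, 3672 and 2921 units at 0h and 1076, 1353 and 1045 at 24h, a log2 change of -1.63 (SE 0.24, adjusted p = 0.00119, limma). It was not on the way down at 4h, when its libraries gave 6787, 5631 and 8941.

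The transcript c30263_g2_i1 also had its highest values at 4h, although that difference from 0h was not called (log2 change 0.66, adjusted p = 0.156, limma). Its libraries gave 2239, 2362 and 2040 at 0h, 3099, 2793 and 4886 at 4h and 488, 610 and 553 at 24h, where the log2 change was -2.01 (SE 0.29, adjusted p = 0.00109, limma). The transcript c13735_g1_i1 gave 2910, 2620 and 1350 at 0h and 638, 644 and 443 at 24h, a log2 change of -1.94 (SE 0.26, adjusted p = 0.000788, limma), and at 4h its 3 libraries lay between 1857 and 2315. All 3 were far lower in the L2H arm, where their group means were between 97.2 and 250.2. These calls were lost with libraries 1 and 2 averaged, at adjusted p = 0.0866, 0.0904 and 0.0904 for c66899_g1_i1, c30263_g2_i1 and c13735_g1_i1.

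The largest rises by value among the 546 were those of c48260_g1_i2, c51439_g1_i1 and c50329_g1_i5. The transcript c48260_g1_i2 stood at 104, 111 and 120 in the 0h libraries and at 397, 388 and 754 in the 24h libraries, a log2 change of 2.12 (SE 0.40, adjusted p = 0.00591, limma). The third library was the highest at 24h, and all 3 at 4h, at 26.1, 22.9 and 50.7, were below the 0h range.

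The transcript c51439_g1_i1 gave 97.2, 103 and 114 at 0h and 276, 316 and 849 at 24h, a log2 change of 1.997 (SE 0.36, adjusted p = 0.00407, limma), again with the third library far above the others. The transcript c50329_g1_i5 rose from 82.9, 88.6 and 71.9 to 336, 339 and 463 (log2 change 2.20, SE 0.45, adjusted p = 0.00859, limma), after 25.6, 30.8 and 38.1 at 4h. With libraries 1 and 2 averaged these 3 were not called, at adjusted p = 0.121 for c48260_g1_i2, 0.102 for c51439_g1_i1 and 0.139 for c50329_g1_i5. The transcripts were picked by value after the data were seen.

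Summed over each list, the transcripts called lower made up 8.21%, 8.12% and 6.89% of the library total at 0h and 3.91%, 3.99% and 3.62% at 24h. Those called higher went from 2.45%, 2.39% and 2.96% to 4.87%, 4.83% and 5.19%. These shares restate the values that made the calls. At 4h, which did not enter them except through the pooled spread, the lower list held 6.94%, 6.57% and 7.33% and the higher list 3.33%, 3.47% and 3.22%.

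The share called differed with the mean over the 18 libraries. It was 5.05% of 23153 transcripts with a mean under 10, 13.2% of 10144 from 10 to 100, 14.7% of 747 from 100 to 1000, and 3.28% of 122 at 1000 or more. The middle 2 classes changed order with upper-quartile scaling, at 14.4% and 13.8%. Falls outnumbered rises in the first 2 classes, with 788 against 381 and 906 against 434, while the class from 100 to 1000 held 52 falls and 58 rises. With quantile-normalized values the first 2 classes held 799 falls against 636 rises and 723 against 700, and with upper-quartile scaled values 701 against 662 and 722 against 734. The excess of falls was thus smaller under both scalings in the first class and in the second was nearly gone or turned. The 4 calls at 1000 or more were all lower, against 4 lower and 4 higher with quantile normalization and 3 lower and 0 higher with upper-quartile scaling.

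**Figure D3:**
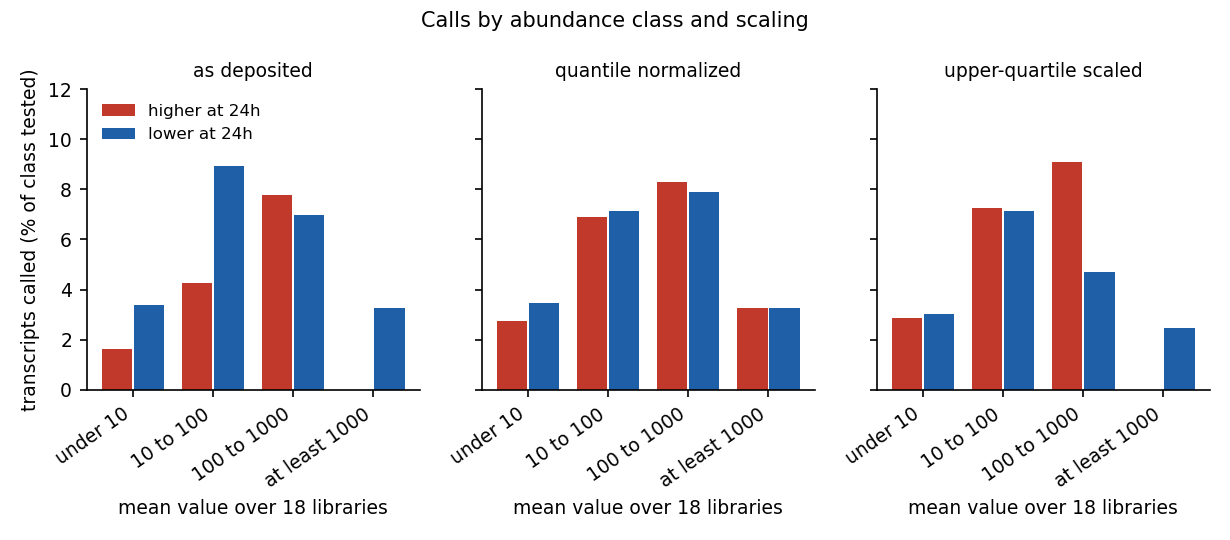
Percent of tested transcripts called higher (red) or lower (blue) at 24h in 4 classes of mean value over the 18 libraries, with values as deposited, quantile normalized and scaled to their upper quartile. The blue bars exceed the red by the widest margin in the class from 10 to 100 with values as deposited, 8.93% against 4.28%, and the pair is close to even after either scaling.

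Transcripts that share the first part of their identifier may come from one cluster of the assembly and may share reads, so they are not independent. Among the tested transcripts 5422 first parts had 2 or more members, and 218 had 2 or more members called. In 113 of the 218 all called members were lower, in 52 all were higher, and in 53 they went both ways. Of the 7 first parts with 4 or more called members, 4 moved in a single direction, and they differed in their time course.

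The first part c43486 held 8 tested transcripts, of which 5 were called, all lower. The 5 had 0h means of 59.8, 16, 11, 26.7 and 13.6 and 24h means of 0.963, 0.907, 0.73, 3.44 and 0.39, with log2 changes between -4.94 and -2.66. All 5 were also called with libraries 1 and 2 averaged, at adjusted p between 0.000253 and 0.0273 (limma). The other 3 were not called (adjusted p = 0.0613, 0.347 and 0.97). The largest mean of the 5 in any L2H group was 3.96.

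The first part c49062 held 4 tested transcripts, and all 4 were called higher, with log2 changes of 1.75, 1.28, 1.79 and 2.04. Their means were 112, 107, 53.5 and 34.6 at 0h, 342, 303, 181 and 104 at 4h, and 366, 255, 177 and 135 at 24h. The 4h means were thus nearer to those at 24h than to those at 0h. Of the 5 tested transcripts of c50329, 4 were called higher at 24h and had 4h means below those at 0h, namely 31.5, 0.533, 24.3 and 0.837 at 4h against 81.1, 0.963, 111 and 1.29 at 0h and 379, 52.3, 350.4 and 119 at 24h. The first part c48260 had 3 of 5 called, all higher, with 4h means of 33.2, 0.433 and 12.7 below 0h means of 112, 0.62 and 41.8. With libraries 1 and 2 averaged the 4 calls of c49062 were lost at adjusted p = 0.0652 to 0.114, the 4 of c50329 at 0.0743 to 0.139 and the 3 of c48260 at 0.0866 to 0.142. These first parts were singled out after their values were seen. The remaining one, c48566, had 4 of 8 called lower with log2 changes between -1.19 and -0.59. These 4 calls were also lost with libraries 1 and 2 averaged (adjusted p = 0.0998 to 0.337, limma), and c48566_g8_i1 (adjusted p = 0.049) did not hold in every fit that left out 1 library.

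The transcripts called at 24h can be set beside their levels at 4h, which share the 0h libraries of the comparison. The 873 called higher had a median of the group means of 7.42 at 0h, 11.6 at 4h and 14.9 at 24h. The 1750 called lower had 15.4, 12.1 and 7.59. The median log2 change at 4h was 0.42 for the first list and -0.37 for the second, against 0.04 over all tested, where limma called 12% of transcripts at 4h.

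The L2H arm moved the other way on balance. Its libraries did not enter the H2L change, but they entered the calls through the pooled spread. Of the 873 transcripts called higher in H2L, the L2H arm's change at 24h was negative in 508 (58.2%), against 45.7% of all tested. Of the 1750 called lower, it was positive in 1143 (65.3%), against 53.9% of all tested. The same comparison gave 63.1% against 48.2% and 58.5% against 51.5% with quantile normalization, and 68.3% against 55.2% and 54.3% against 44.5% with upper-quartile scaling. It gave 54.1% against 43.4% and 66.8% against 55.8% within libraries 1 and 2, and 61.4% against 54.8% and 48.3% against 41.7% in the third library alone. The tags of libraries 1 and 2 change from 0h to 24h in the same way in both arms. The median L2H change was small, -0.08 for the higher list and 0.13 for the lower, against 0.04 over all tested.

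The clearest opposition lay in a small group. A fall of at least 4-fold in L2H occurred in 18 (2.06%) of the 873 and in 39 (0.114%) of all tested, so 18 of the 39 were called higher in H2L. Without L2H 0h library 1, 2 or 3 this was 15 of 37, 15 of 30 and 22 of 73. It was 21 of 78 within libraries 1 and 2 and 11 of 94 in the third library alone, which carries no test. Members of 1 first part may share reads, such as those of c50329 with L2H means of 78.6 and 115 at 0h and 1.94 and 1.68 at 24h. A rise of at least 4-fold in L2H occurred in 5 (0.286%) of the 1750 and in 16 (0.0468%) of all tested. When L2H 0h library 1, 2 or 3 was dropped, that 5 of 16 became 1 of 8, 1 of 12 and 13 of 51. In L2H limma called 43 of the 873 lower and 14 higher (4.93% and 1.60%, against 0.527% and 0.861% of all tested), and 53 of the 1750 higher and 10 lower (3.03% and 0.571%). Both arms' calls used the same pooled spread per transcript, so they are not independent. The shares called in the same direction, 1.60% and 0.571%, were also above those of all tested. How much of these shares comes from the common spread was not tested. The number of L2H calls hung on single libraries, in the lists and over all transcripts. Over all tested transcripts L2H had 180 calls lower and 294 higher, so the lists held 43 of 180 and 53 of 294. Dropping L2H 0h library 1 gave 11 of 19 and 5 of 12, dropping library 2 gave 11 of 18 and 5 of 9, and dropping library 3 gave 96 of 751 and 170 of 1351. Dropping the L2H 24h libraries in turn gave 16 of 38 and 10 of 28, 17 of 44 and 13 of 35, and 25 of 69 and 25 of 122.

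**Figure D4:**
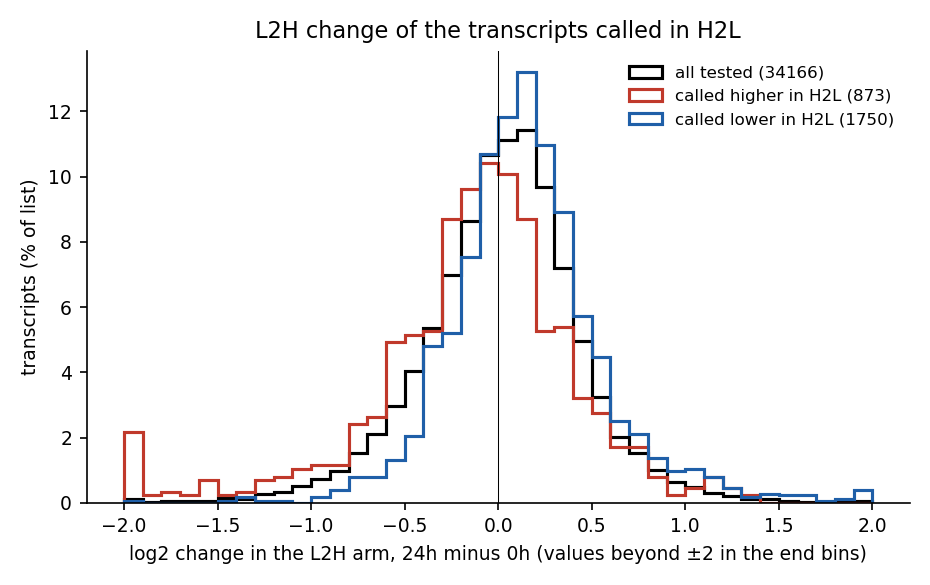
Distribution of the L2H arm's log2 change at 24h for all 34166 tested transcripts (black), the 873 called higher in H2L (red) and the 1750 called lower in H2L (blue), as percent of each list. The red curve lies to the left of the black and has a tail beyond -2 that holds 18 transcripts, and the blue curve lies to the right.

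The difference itself was tested as the H2L change minus the L2H change. Limma called 2200 transcripts (6.44%), 766 with the H2L change above the L2H change (2.24%) and 1434 with it below (4.2%). The share above, 34.8%, was 48.7% with quantile normalization and 57.4% with upper-quartile scaling. Leaving out the H2L 0h libraries in turn gave 1147, 1098 and 2760 calls, and leaving out H2L 24h library 3 gave 1417. Leaving out the L2H 0h libraries in turn gave 1059, 1118 and 3434, and leaving out L2H 24h library 2 gave 1323. With libraries 1 and 2 averaged it was 43. The transcript c48260_g3_i1 gave the widest contrast of those named, with a difference of 10.20 on the log2 scale (SE 1.13, adjusted p = 0.000109, limma). Its L2H libraries gave 93.8, 96 and 31.7 at 0h and 0.8, 0.9 and 2.84 at 24h, a net change opposite to that in H2L. The time courses were not mirror images. At 4h its L2H libraries gave 0.71, 1.16 and 38.1, so libraries 1 and 2 had dropped and the third had not. Its H2L libraries at 4h, at 0.7, 0.12 and 0.48, had not yet risen. The transcript c51439_g1_i1 stood at 1056 ± 294 (SD, n = 3) in L2H at 0h and 176 ± 1.25 at 24h, and its difference was 4.53 (SE 0.50, adjusted p = 0.000112, limma).

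The change could be read in each series of libraries separately. Libraries 1 and 2 alone gave 7317 calls, 3232 higher and 4085 lower. The spread behind these calls is only that between libraries 1 and 2 of each group. Of the 2623 calls of all 3 libraries 2424 were called in the same direction there. Libraries 1 and 2 also entered the 2623 calls, so this overlap is not an independent check. The third library took no part in those 7317 calls and has 1 library per time, so it carries no test. Its change had the same sign in 2521 (78.0%) of the 3232, against 44.3% of all tested that were above 0 in it, and in 3555 (87.0%) of the 4085, against 49.9% of all tested below 0. The median change was 0.64 in libraries 1 and 2 and 0.27 in the third library for the first list, and -0.73 and -0.46 for the second.

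Among transcripts that changed at least 2-fold in libraries 1 and 2, the third library also changed at least 2-fold the same way in 163 of 659 called higher (24.7%, against 4.38% of all tested). It did so in 448 of 1126 called lower (39.8%, against 6.85% of all tested).

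**Figure D5:**
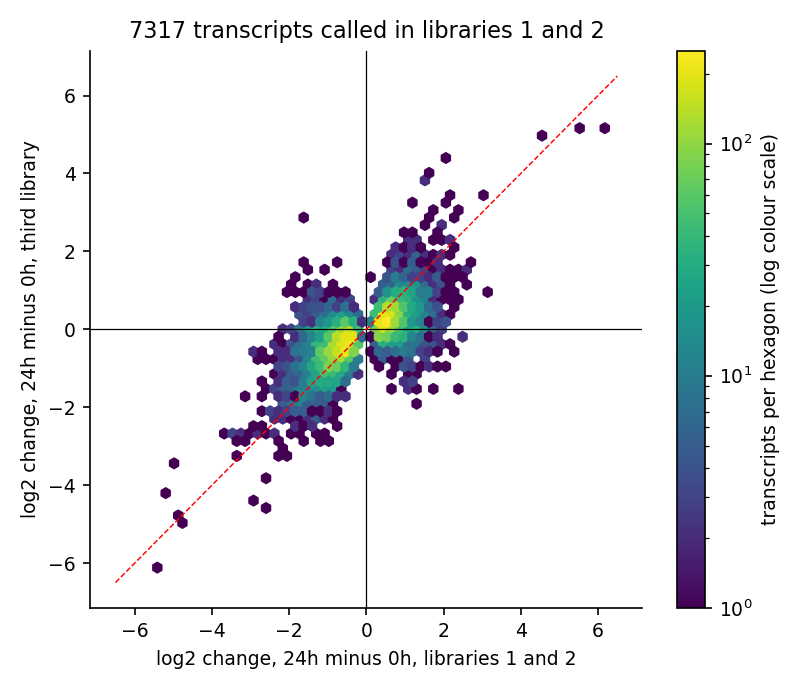
Log2 change from 0h to 24h in the third library (vertical axis) against that in libraries 1 and 2 (horizontal axis) for the 7317 transcripts called in libraries 1 and 2, with colour giving the number of transcripts per hexagon and a dashed line of equality. Most transcripts lie in the lower left and upper right quadrants, with the third library nearer to 0.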

How the data were processed

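Per the submitters' processing notes, the tools were FastQC, Bowtie2 and RSEM, of unstated version. The authors deposited 1 table that holds a signal of abundance per transcript, scaled for depth, and whether that means FPKM or TPM is not stated. Columns were matched to samples by title.

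A transcript was tested when 3 or more of the 18 libraries reached a value of 1, which held for 34166 of 43236. The test used log2(value + 1), on which low transcripts appear to change less. All 18 libraries entered 1 limma fit (version 3.58.1, R 4.3.3) with group means and a prior variance that followed abundance, and two-sided p-values were adjusted with the Benjamini-Hochberg method. The fit was also run on simulated data. No outcome of that run is given, so it is no evidence that the p-values hold where libraries share a tag set. Replicates are separate samples per the labels, and the spread behind the p-values is that between these libraries and may be technical.

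The comparison, the rules and the lists were chosen with earlier results of these data known. Transcripts were named by the largest log2 changes, 2 in each direction, among those called, also called with libraries 1 and 2 averaged, whose higher group averaged 10 or more and whose groups did not overlap. The others named were singled out after their values were seen. Alternatives changed 1 choice at a time: the library number as a block, the libraries used, scaling, pseudocount, filter and variance model.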

Additional observations from a re-analysis of the deposited data

Results flagged for a closer look

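For each transcript named, the change from 0h to 24h differed between the arms by limma's test of the difference (adjusted p of 0.00489 or less in each of the 12). The H2L change minus the L2H change, on the log2 scale, was 2.88 for c46276_g5_i2, 2.31 for c47881_g5_i1, 3.15 for c48260_g1_i2, 4.53 for c51439_g1_i1, 3.63 for c50329_g1_i5 and 10.20 for c48260_g3_i1. It was -5.96 for c43486_g1_i1, -4.51 for c9269_g1_i1, -2.41 for c66899_g1_i1, -2.26 for c13735_g1_i1, -2.82 for c30263_g2_i1 and -3.52 for c55012_g1_i1. With libraries 1 and 2 averaged, the difference was not called for c47881_g5_i1 (adjusted p = 0.0563), c48260_g1_i2 (0.166), c50329_g1_i5 (0.155), c66899_g1_i1 (0.0712), c13735_g1_i1 (0.138) and c30263_g2_i1 (0.107). No other alternative ended the call of any of the 12. Over all tested transcripts 2200 were called for this difference. Since the 12 were chosen by their H2L change, the size of these differences is partly set by the choice. In L2H at 0h no library of c43486_g1_i1, c9269_g1_i1 or c55012_g1_i1 was above 0.98. These transcripts had almost no room to fall in L2H, so their called differences largely restate the H2L falls.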

How the results depend on the processing

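The number of calls at 24h, 2623, was 7317 within libraries 1 and 2, 24 when they were averaged (where 4491 had an unadjusted p under 0.05), 1540 when the fit held only the 2 groups compared, 7492 with array weights, and 656 to 3335 with 1 library left out. The calls higher were 3232, 2, 479 and 3209 in these 4 settings, 190 to 1204 with 1 library left out, 1402 with quantile normalization and 1464 with upper-quartile scaling. The calls lower were 4085, 22, 1061 and 4283, and 466 to 2131 with 1 library left out. The 1007 calls of at least 2-fold were 1785 within libraries 1 and 2, 24 with them averaged, 255 with a pseudocount of 5, 530 with a minimum value of 10, 1824 with array weights and 421 to 1476 with 1 library left out. The 2200 calls of the difference between the arms were 7260 within libraries 1 and 2, 43 with them averaged, 6766 with array weights and 1059 to 3434 with 1 library left out. The other planned settings kept each count within 1.5 times. The replicate block gave 3384 calls. The deviations of libraries 1, 2 and 3 at 0h from their group means correlated with those of the same number at 24h at r = 0.111, 0.0882 and 0.259 across transcripts. H2L 0h library 2 correlated better with H2L 24h library 1 (0.0942) than with its own number, and the numbers were not taken as pairs. The third 0h library gave r = -0.165 and -0.139 with libraries 1 and 2 at 24h. Libraries 1 and 2 at 0h gave r = -0.167 and -0.155 with the third at 24h. Deviations from a group mean cancel within the group, so these negative values are tied to the positive ones and add little. By this measure the split of libraries 1 and 2 from the third was shared only weakly by both times. The main fit held no term for it. All 2623 calls kept their sign in every alternative that tested them. Several alternatives leave the log2 change itself as it was, and the others reuse libraries that made the calls. The kept sign is therefore not independent support. The cause of the shifts in the counts was not tested.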
